A study of Mus musculus with 6 samples.

Results

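The genes described here are those carried by the mitochondrial genome itself, taken as every row of the deposited gene table whose symbol starts with mt-. They are 37 of the 55291 genes in the table: 13 protein genes, 2 rRNA genes and 22 tRNA genes. RNA-seq covered femoral marrow of P2rx7 knockout mice, here knockouts A, B and C, and of wild-type mice, here WT 1, 2 and 3, all 6 to 8 weeks old, with 3 libraries per genotype. P2rx7 makes a cation channel that opens on binding ATP, and the title of the series ties it to bone ageing and to mitochondrial fitness of mesenchymal stromal cells. The labels give neither the exons that the knockout allele lacks nor the strain or sex of the mice, and no treatment is named for either genotype.

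Mitochondrial DNA is a small circle that is transcribed from both strands into long RNAs that span many genes. The tRNAs lie between most of the protein and rRNA genes, and their excision releases the mature RNAs on either side. The protein genes encode core subunits of complexes I, III and IV and of the ATP synthase (complex V), while the remaining subunits of these complexes come from nuclear genes. Copies of parts of the mitochondrial genome, inserted into nuclear chromosomes, are common in mammals and are not known to make respiratory proteins.

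The libraries held totals of 18716704 to 22382281 counts in the knockouts and 20037343 to 23575652 counts in the wild types. The edgeR quasi-likelihood test, with Benjamini-Hochberg adjustment over the 15478 genes that passed the filter on low counts and a threshold of 0.05, called 9 genes higher and 7 lower in the knockouts. P2rx7, on chromosome 5, was among the lower ones, with 876, 722 and 748 counts in the knockouts A, B and C, against 1207, 1410 and 1453 counts in the 3 wild types (adjusted p = 0.0109, edgeR). It was reduced and not lost. Transcripts of 2 other tissues divided the libraries: Gh, the growth hormone gene, had 23 to 82 counts in knockout A and the 3 wild types and 0 in knockouts B and C, whereas Alb, the albumin gene, had 46 and 36 counts in those 2 knockouts and 0 elsewhere. Gh and Alb were picked with their counts already in view. Values without knockouts B and C are given for the main results. Markers of red cell precursors were near 0 although the tissue is labelled bone marrow: all 7, including the globin genes Hba-a1 and Hbb-bs, had at most 5 counts in any library. In CPM, counts scaled to a library of 1000000, B cell markers summed to 1.17 to 1.81 in the knockouts and 0.902 to 1.12 in the wild types. Macrophage markers, by contrast, summed to 2942 to 3279 CPM in the knockouts and 2952 to 3027 CPM in the wild types.

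Within the 37 genes, a stretch of the mitochondrial genome has an annotated copy on chromosome 1, and reads that fall inside that stretch can fit both places. The copy is annotated as 7 unprocessed pseudogenes in a row on the minus strand, at chr1:24611535-24616197 (GRCm38). Their sources run from the last part of mt-Co1 to the first part of mt-Nd4, at chrM:6381-11042 on the plus strand. Sequences were compared in GENCODE M21 transcripts of GRCm38. The first bases of mt-Atp6, at chrM:7927-8006 on the plus strand, and of its copy Gm10925, at chr1:24614572-24614651 on the minus strand, are shown because no base differs between them.
mt-Atp6: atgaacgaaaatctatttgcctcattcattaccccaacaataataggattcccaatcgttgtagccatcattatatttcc
Gm10925: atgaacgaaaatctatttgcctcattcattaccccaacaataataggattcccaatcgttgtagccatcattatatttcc
The edge of the copy lies inside mt-Co1, and the bases that differ there are in capitals, with mt-Co1 at chrM:6381-6460 on the plus strand and its copy Gm29216 at chr1:24616118-24616197 on the minus strand.
mt-Co1: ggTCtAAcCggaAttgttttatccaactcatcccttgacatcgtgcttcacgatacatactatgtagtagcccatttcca
Gm29216: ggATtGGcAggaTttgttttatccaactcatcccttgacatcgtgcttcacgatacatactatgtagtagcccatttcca
The differences are T1056A, C1057T, A1059G, A1060G, C1062A and A1066T, with the base of mt-Co1 first and positions counted from the first base of mt-Co1. At the other edge, mt-Nd4 continues at chrM:11043-11122 on the plus strand, from its base 877 to its base 956, with sequence that the annotated copy does not hold.
mt-Nd4: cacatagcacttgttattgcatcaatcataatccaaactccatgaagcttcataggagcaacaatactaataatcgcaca

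Between these edges the annotated copies were almost base for base the same as their sources. Gm28661 matched 681 of 681 aligned bases of mt-Co2, Gm10925 matched 678 of 678 of mt-Atp6, Gm28437 matched 783 of 783 of mt-Co3, Gm10222 matched 294 of 294 of mt-Nd4l and Gm28439 matched 876 of 876 of mt-Nd4. Gm28438 matched 342 of 342 aligned bases of mt-Nd3 and differed outside them by T3C, counted from the first base of mt-Nd3. Gm29216 matched 482 of 483 aligned bases of mt-Co1, the mismatch being A1066T at the edge. An exact nuclear match was found for 99.5% of the 75-base windows of mt-Co2 and mt-Atp6, 99.9% of those of mt-Co3, 97.8% of mt-Nd3, 98.7% of mt-Nd4l, 61.5% of mt-Nd4 and 39.8% of mt-Co1. The share was 5.71% for mt-Nd2, 1.66% for mt-Nd5 and 0 for mt-Nd1, mt-Nd6, mt-Cytb, mt-Rnr1 and mt-Rnr2. mt-Atp8 also had no match among annotated transcripts, but it lies inside the stretch, between mt-Co2 and mt-Atp6. Those genes are 230 bases apart on the mitochondrial genome and their copies are 233 bases apart on chromosome 1, in sequence not analysed here. How the authors counted reads that fit more than 1 place is not given in the sources used here, so the levels of genes with a copy are uncertain.

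The levels of the protein genes, compared as deposited FPKM (counts scaled by gene length and library size), lay in separate ranges. The 7 genes that extend outside the copied stretch or lie wholly outside it had 1136 to 4464 FPKM over the 6 libraries. They are mt-Nd1, mt-Nd2, mt-Co1, mt-Nd4, mt-Nd5, mt-Nd6 and mt-Cytb. The 6 genes that lie wholly inside it, mt-Co2, mt-Atp8, mt-Atp6, mt-Co3, mt-Nd3 and mt-Nd4l, had 1.43 to 33.3 FPKM in the same libraries. In counts, the first set held 16384 to 159508 counts per gene and library and the second held 10 to 525. Position in the stretch and level thus went together for all 13 protein genes, and the part of the authors' counting in this was not tested.

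**Figure D1:**
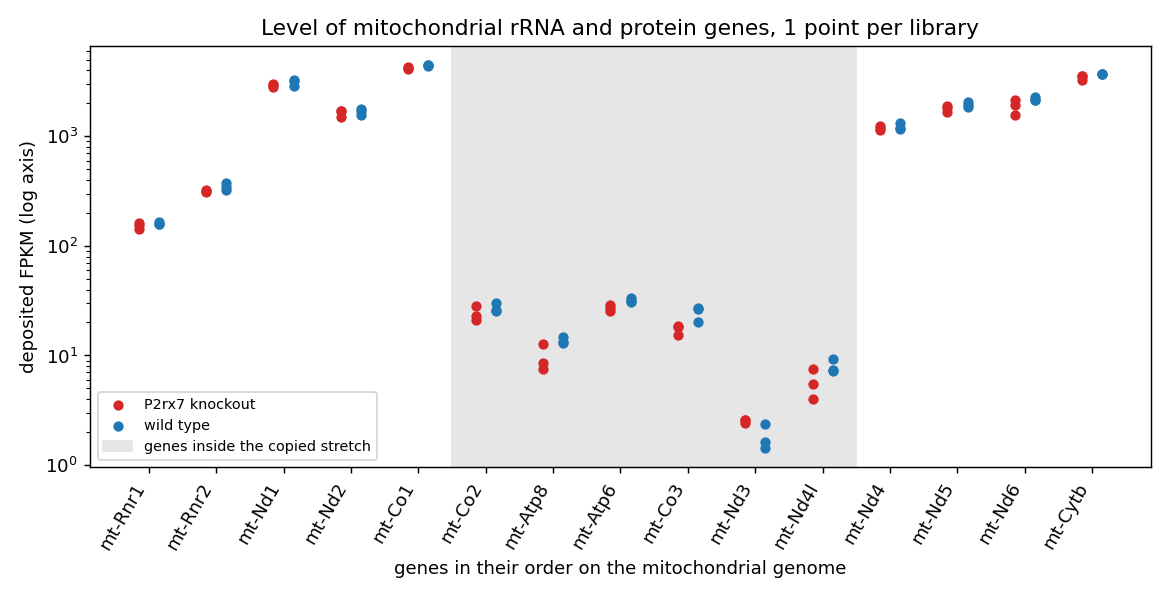
Deposited FPKM (log axis) of the 2 rRNA and 13 protein genes in their order on the mitochondrial genome, with 1 point per library, knockouts left of wild types, and the 6 genes inside the copied stretch shaded. The shaded genes lie at 1.43 to 33.3 FPKM in all 6 libraries, and the other protein genes lie at 1136 to 4464 FPKM.

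**Figure D2:**
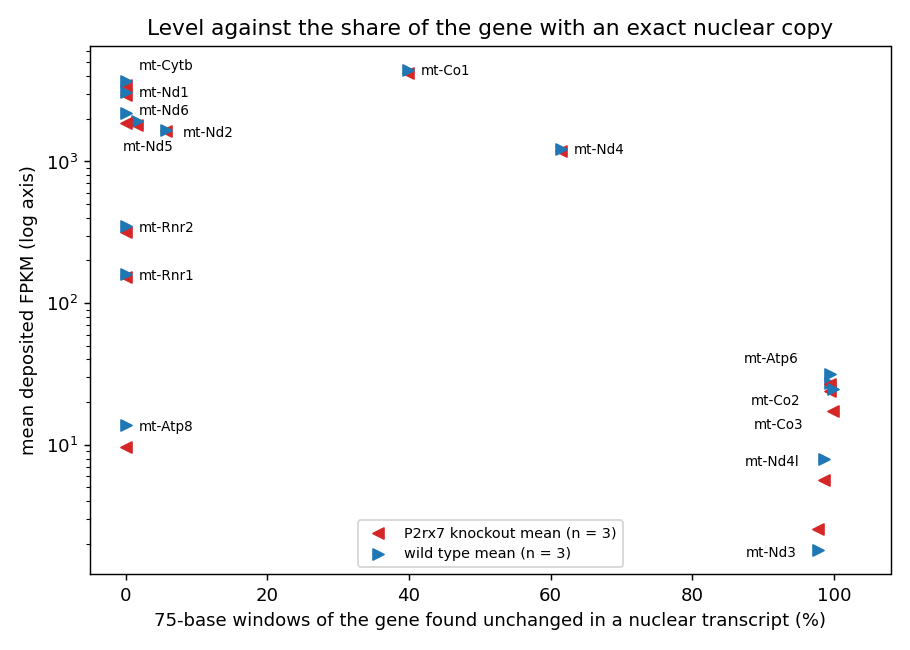
Mean deposited FPKM per genotype (log axis, n = 3 each) against the percentage of 75-base windows of the gene that occur unchanged in a nuclear transcript. The 5 genes with 97.8% or more lie below 100 FPKM. So does mt-Atp8, which lies inside the copied stretch and had no match among annotated transcripts.

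The copies themselves carried counts, of the same order as their fully copied sources. mt-Atp6 had 408, 374 and 345 counts in the knockouts A, B and C and 427, 525 and 484 counts in WT 1, 2 and 3. Its copy Gm10925 had 492, 401 and 401 counts in the knockouts and 569, 611 and 545 counts in the wild types. The copy thus held 51.7% to 57.1% of the counts of this pair. The copy's share was 36.7% to 42.9% for mt-Co2 with Gm28661, 48.6% to 67.6% for mt-Co3 with Gm28437, 57.4% to 79.2% for mt-Nd3 with Gm28438 and 47.1% to 66.2% for mt-Nd4l with Gm10222. For the 2 genes that are copied in part, the share was far smaller, at 0.538% to 0.777% for mt-Nd4 with Gm28439 and 0.281% to 0.343% for mt-Co1 with Gm29216.

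Adding the copy's counts to those of its source did not bring any of the 5 fully copied genes near the other set. A read left out for fitting both places would be missing from gene and copy alike, and this was not tested. The summed counts over the gene's length gave 54.6 to 72.9 FPKM for mt-Atp6, 36.1 to 49.6 FPKM for mt-Co2, 34.1 to 83.1 FPKM for mt-Co3, 11.9 to 17.6 FPKM for mt-Nd4l and 6.10 to 9.53 FPKM for mt-Nd3. All 7 copies together held 2014, 1545 and 1517 counts in the knockouts, against 1956, 2893 and 2023 in WT 1, 2 and 3. The excess in WT 2 lay in Gm28437, the copy of mt-Co3. It had 573, 319 and 293 counts in the knockouts, against 394, 1020 and 365 in WT 1, 2 and 3. If all counts of mt-Co1 are placed on its 1053 bases outside the chromosome 1 copy, its level was 6162 ± 136 FPKM in the knockouts and 6493 ± 62.8 FPKM in the wild types (SD, n = 3 each). The same reckoning over the 502 uncopied bases of mt-Nd4 gave 3260 ± 143 FPKM in the knockouts and 3373 ± 229 FPKM in the wild types. The 1053 bases of mt-Co1 are not free of nuclear matches. An exact match was found for 586 of its 75-base windows, more than the 492 bases of Gm29216 can hold, and Gm13340 also matched.

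**Figure D3:**
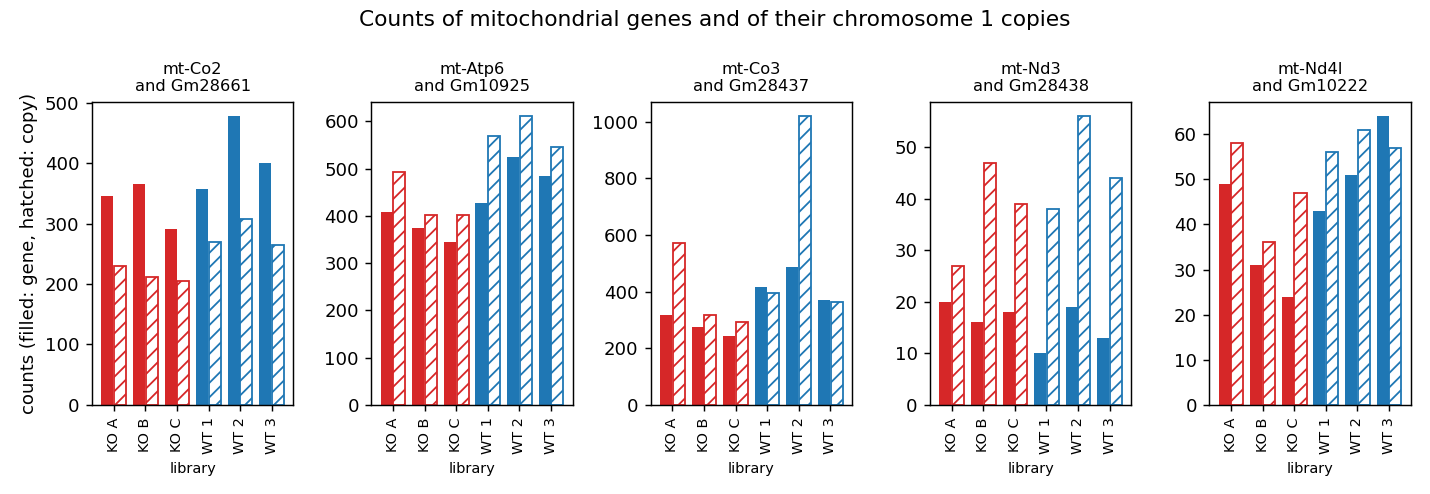
Counts per library of 5 mitochondrial genes (filled bars) and of their chromosome 1 copies (hatched bars), knockouts left of wild types, each panel with its own axis from 0. Gene and copy are of the same order in every panel, and Gm28437 stands highest in WT 2, at 1020 counts.

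Mitochondrial RNA took a slightly smaller share of the libraries in the knockouts. The 37 genes held 2.20%, 2.23% and 2.09% of all counts in the knockouts A, B and C, against 2.23%, 2.26% and 2.34% in WT 1, 2 and 3. The genotypes did not overlap, although knockout B and WT 1 were nearly equal. The mean was 2.17% ± 0.0705 in the knockouts and 2.28% ± 0.0584 in the wild types (SD, n = 3 each), a difference of -0.104 percentage points. In an exact two-sided permutation test over libraries p was 0.1, the smallest value that 3 against 3 allows, and 0.35 after Benjamini-Hochberg adjustment over the 7 shares and ratios tested. Without knockouts B and C the difference was -0.0767 percentage points and rested on 1 knockout. In bulk RNA of this tissue, a smaller share of cells rich in mitochondrial RNA and less such RNA per cell cannot be told apart. Stroma markers, led by the chemokine gene Cxcl12, summed to 4814 to 5754 CPM in the knockouts and 1876 to 3913 CPM in the wild types, and osteoblast markers summed to 486 to 628 CPM in the knockouts and 194 to 457 CPM in the wild types. Both sums were higher in every knockout. Taken singly, 3 of 5 tested stroma genes and 2 of 3 tested osteoblast genes were higher without overlap, against 11.5% of all tested genes. In edgeR 0 genes of either list were called, with a lowest adjusted p of 0.167 for stroma and 0.192 for osteoblasts. Over all tested genes, 0.103% were called. The part of these 2 lists in the mitochondrial share was not tested. Markers of skeletal muscle, a tissue rich in mitochondria, summed to 12.1 to 14.3 CPM in the knockouts and 13.8 to 17.8 CPM in the wild types, and those of neutrophils to 85.4 to 508 CPM in the knockouts and 103 to 415 CPM in the wild types, with overlap in both lists.

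Of the 37 genes, 22 passed the filter on low counts, namely all protein and rRNA genes and 7 tRNA genes. None of the 22 passed the threshold in edgeR (0 called), where 0.103% of all tested genes did. At an unadjusted p under 0.05, 2 were lower in the knockouts, mt-Co3 and mt-Atp6, against 8.22% of all tested genes, and 0 were higher, against 8.35%. DESeq2 called 1 of the 22, mt-Co3, and gave no adjusted p for mt-Nd3 and mt-Tn. It called 3.2% of all tested genes, where any gene without an adjusted p is taken as not called. Without the filter, edgeR called the same gene, where it called 3.2% of all genes tested that way. The CPM values of the genotypes did not overlap for 7 of the 22 genes that were lower in every knockout, against 10.4% of all tested genes, and for 1 that was higher, mt-Nd3, against 11.5%. The 7 were mt-Rnr2, mt-Co1, mt-Atp8, mt-Atp6, mt-Co3, mt-Nd6 and mt-Cytb. The genes share long precursor RNAs and the same libraries, so these counts are not of independent genes. Fitted log2 fold changes of knockout over wild type were above 0 for 4 and below 0 for 18 of the 22, where 51.2% of all tested genes were above 0. The median was -0.10 over the 22 and also over the 13 protein genes, against 0.00 over all tested genes. It was -0.08 over the 7 protein genes that extend or lie outside the copied stretch and -0.35 over the 6 inside it. Both genes with an unadjusted p under 0.05, mt-Co3 and mt-Atp6, lie inside the stretch, where levels are uncertain. Without knockouts B and C the median of the 13 protein genes was -0.06.

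**Figure D4:**
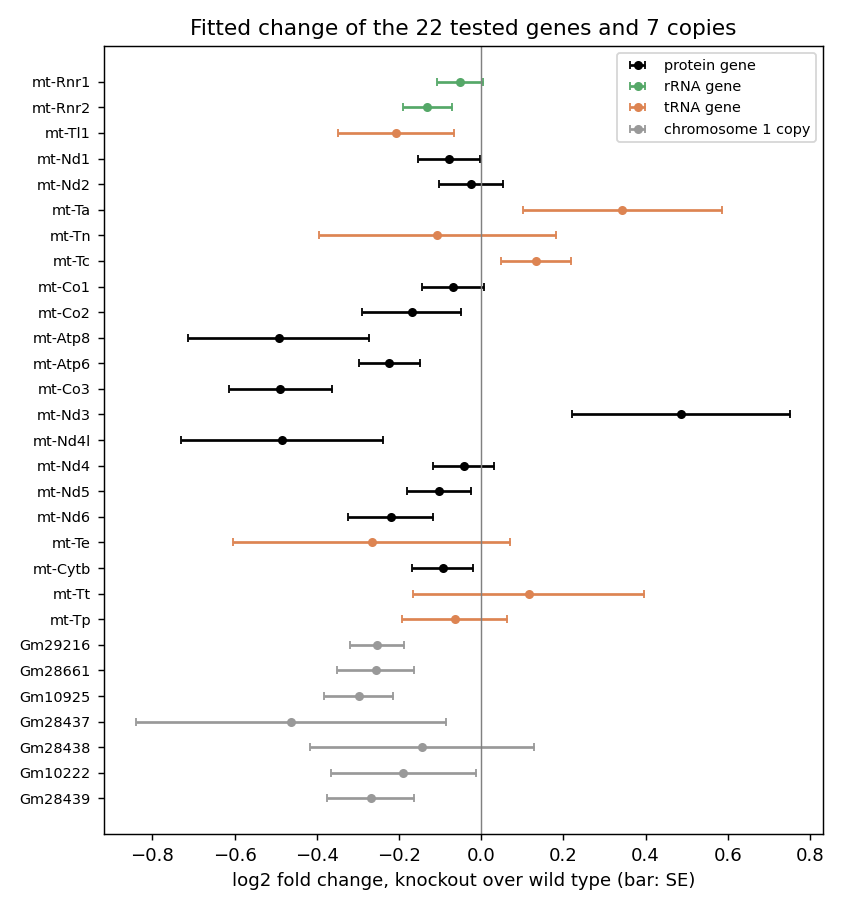
Fitted log2 fold change of knockout over wild type (point) with its standard error (bar) for the 22 tested mitochondrial genes and the 7 chromosome 1 copies, in genome order. Most protein genes lie between 0 and -0.22, the low genes mt-Atp8, mt-Co3 and mt-Nd4l lie near -0.49 with wider bars, and mt-Nd3 lies at 0.49.

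Complex I, which takes electrons from NADH, has 7 mitochondrial subunits, and 6 of them had fold changes below 0 without passing the threshold. mt-Nd1, a subunit of the membrane arm next to the quinone site, had 3030, 2946 and 2807 FPKM in the knockouts A, B and C, against 2872, 3243 and 3211 FPKM in WT 1, 2 and 3. Its genotypes overlapped (log2 fold change -0.08 ± 0.08 SE, adjusted p = 0.641, edgeR). mt-Nd2, a pump subunit of the membrane arm, had 1694, 1695 and 1506 FPKM in the knockouts and 1549, 1695 and 1763 FPKM in the wild types. It gave the smallest change of the protein genes, at -0.03 ± 0.08 (adjusted p = 0.906, edgeR).

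mt-Nd4 and mt-Nd5, the other pump subunits related to bacterial antiporters, likewise overlapped between genotypes. mt-Nd4 had 1186, 1240 and 1136 FPKM in the knockouts A, B and C, against 1194, 1169 and 1324 FPKM in WT 1, 2 and 3. The genotypes overlapped (log2 fold change -0.04 ± 0.07, adjusted p = 0.822, edgeR). mt-Nd5 had 1886, 1827 and 1682 FPKM in the knockouts, against 1834, 1948 and 2038 FPKM in the wild types. Here knockout C was lowest and WT 3 highest, with overlap between them (-0.10 ± 0.08, adjusted p = 0.551, edgeR).

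mt-Nd6 is the protein gene encoded on the strand opposite to the other 12, at chrM:13552-14070 on the minus strand. It had 2121, 1939 and 1573 FPKM in the knockouts A, B and C, against 2156, 2138 and 2297 FPKM in WT 1, 2 and 3. All knockouts lay below all wild types, but knockout A lay close to them and knockout C far below. The log2 fold change was -0.22 ± 0.10 (adjusted p = 0.335, edgeR), and it was -0.06 without knockouts B and C. Relative to the other 12 protein genes, mt-Nd6 had 5.38, 4.97 and 4.30 counts per 100 in the knockouts, against 5.48, 5.25 and 5.50 in the wild types. The genotypes overlapped on this ratio, with 4.88 ± 0.547 in the knockouts and 5.41 ± 0.139 in the wild types (SD, n = 3 each; exact two-sided permutation p = 0.2, adjusted 0.35). Without knockouts B and C the difference of this ratio was -0.0296, against -0.527 over all libraries. Whether the counting used strand is not given in the sources used here, and without it reads of mt-Nd6 and of the antisense RNA of the other strand cannot be told apart.

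mt-Nd3 and mt-Nd4l, the smallest complex I subunits of the mitochondrial genome, were counted at very low levels and have near-identical copies. mt-Nd3 had 20, 16 and 18 counts in the knockouts A, B and C, against 10, 19 and 13 counts in WT 1, 2 and 3. Scaled for depth, all knockouts were above all wild types, at 2.60, 2.42 and 2.58 FPKM against 1.43, 2.36 and 1.62 FPKM, with a log2 fold change of 0.49 ± 0.27 (adjusted p = 0.398, edgeR). With the counts of Gm28438 added, the change was 0.03. mt-Nd4l had 49, 31 and 24 counts in the knockouts and 43, 51 and 64 counts in the wild types, and the genotypes overlapped (-0.48 ± 0.25, adjusted p = 0.368, edgeR). Without knockouts B and C its change was -0.11.

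mt-Cytb, the cytochrome b of complex III, was the second most counted mitochondrial gene, with 18.1% to 19.1% of mitochondrial counts in each library. It had 3536, 3575 and 3256 FPKM in the knockouts A, B and C, against 3719, 3663 and 3738 FPKM in WT 1, 2 and 3. All knockouts were below all wild types, by a small margin relative to the level. The log2 fold change was -0.09 ± 0.07 (adjusted p = 0.566, edgeR), and without knockouts B and C it was -0.08.

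Complex IV, the cytochrome c oxidase, has its catalytic core in mt-Co1, mt-Co2 and mt-Co3. mt-Co1 was the most counted mitochondrial gene, with 29.2% to 30.9% of mitochondrial counts. It had 4295, 4193 and 4110 FPKM in the knockouts A, B and C, against 4379, 4434 and 4464 FPKM in WT 1, 2 and 3. The genotypes did not overlap, and the fitted change was -0.07 ± 0.08 (adjusted p = 0.696, edgeR). mt-Co2, which holds the first copper site that receives electrons, had 22.8, 28.2 and 21.2 FPKM in the knockouts, against 26.1, 30.2 and 25.3 FPKM in the wild types. The genotypes overlapped (-0.17 ± 0.12, adjusted p = 0.513, edgeR).

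mt-Co3 gave the smallest p of all mitochondrial genes and was the only one called in the alternatives run. It had 317, 276 and 243 counts in the knockouts A, B and C, against 417, 488 and 369 counts in WT 1, 2 and 3. In FPKM this was 18.3, 18.5 and 15.4 in the knockouts and 26.5, 26.9 and 20.3 in the wild types, without overlap. The log2 fold change was -0.49 ± 0.13 (adjusted p = 0.161, edgeR). Its copy Gm28437 did not separate the genotypes, with a log2 fold change of -0.46 ± 0.38 (adjusted p = 0.576, edgeR), and gene and copy together gave -0.47 (adjusted p = 0.388). Over the alternatives the adjusted p of mt-Co3 ranged from 0.00993 to 0.969, and it was 0.0487 without WT 3.

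The ATP synthase subunits mt-Atp6, which forms part of the proton channel, and mt-Atp8 are encoded in frames that overlap by 43 bases. mt-Atp6 had 27.1, 28.9 and 25.2 FPKM in the knockouts A, B and C, against 31.2, 33.3 and 30.7 FPKM in WT 1, 2 and 3. The genotypes did not overlap (log2 fold change -0.22 ± 0.07, adjusted p = 0.216, edgeR), and with Gm10925 added the change was -0.26 (adjusted p = 0.159). mt-Atp8 had 58, 33 and 31 counts in the knockouts and 53, 70 and 63 counts in the wild types. Scaled for depth it was lower in every knockout, with knockout A at 12.8 FPKM next to WT 1 at 12.9 FPKM (-0.49 ± 0.22, adjusted p = 0.312, edgeR). Without knockouts B and C the change of mt-Atp8 was -0.10.

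The 7 copies, which were tested as genes of their own, all had fold changes below 0, from -0.46 to -0.14. Of these, 0 were called (lowest adjusted p 0.163, edgeR) and 4 were lower at an unadjusted p under 0.05, against 8.22% of all tested genes. DESeq2 also called 0 (lowest adjusted p 0.143), with 2 lower at an unadjusted p under 0.05, against 6.69% of all tested genes. The copies lie side by side and match the sequence of their source genes, so they are not independent. Gm10925 had 31.1 ± 1.65 FPKM in the knockouts and 38.5 ± 3.54 FPKM in the wild types, without overlap. Gm29216, the copy of the last part of mt-Co1, had 37.4 ± 0.697 FPKM in the knockouts and 44.8 ± 2.66 FPKM in the wild types (SD, n = 3 each), also without overlap. The change of the copies and of their sources was thus in the same direction for all pairs except mt-Nd3 with Gm28438.

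The rRNA genes of the mitochondrial ribosome were counted below the main protein genes in FPKM. Library preparation can change how much rRNA is sequenced, and its part in these levels and in the rRNA share was not tested. mt-Rnr1, the small-subunit 12S rRNA, had 144, 155 and 161 FPKM in the knockouts A, B and C, against 157, 158 and 165 FPKM in WT 1, 2 and 3, with overlap (log2 fold change -0.05 ± 0.06, adjusted p = 0.689, edgeR). mt-Rnr2, the large-subunit 16S rRNA, had 320, 310 and 316 FPKM in the knockouts, against 325, 372 and 346 FPKM in the wild types. mt-Rnr2 was lower in all knockouts, by -0.13 ± 0.06 (adjusted p = 0.314, edgeR). The ratio of mt-Rnr2 to mt-Rnr1 was 3.69, 3.30 and 3.25 counts per count in the knockouts and 3.42, 3.91 and 3.48 in the wild types. Together they made 2.89%, 2.91% and 3.19% of mitochondrial counts in the knockouts and 2.98%, 3.21% and 2.98% in the wild types (exact two-sided permutation p = 0.5, adjusted 0.583).

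The 22 tRNA genes gave very few counts, with 978, 1032 and 913 in all in the knockouts A, B and C and 964, 1133 and 1107 in WT 1, 2 and 3. The 3 most counted held 83.4% to 87.6% of these in each library. They are shown with the anticodon in capitals: mt-Tc (cysteine) at chrM:5192-5257 and mt-Tp (proline) at chrM:15356-15422 on the minus strand, and mt-Tl1 (leucine) at chrM:2676-2750 on the plus strand.
mt-Tc: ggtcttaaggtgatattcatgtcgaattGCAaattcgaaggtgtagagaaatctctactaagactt
mt-Tp: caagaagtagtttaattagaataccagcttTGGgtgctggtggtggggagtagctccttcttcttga
mt-Tl1: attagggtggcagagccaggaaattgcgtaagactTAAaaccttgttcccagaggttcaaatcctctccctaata
Such genes are 59 to 75 bases long, and most touch or nearly touch a neighbour, so that a read can reach across the border of a tRNA gene.

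Levels of the counted tRNA genes overlapped between genotypes. mt-Tc had 408, 358 and 404 counts in the knockouts A, B and C and 385, 402 and 373 counts in WT 1, 2 and 3, or 279, 286 and 305 FPKM in the knockouts and 291, 263 and 244 FPKM in the wild types (log2 fold change 0.13 ± 0.09, adjusted p = 0.473, edgeR). mt-Tp had 239, 273 and 214 counts in the knockouts and 252, 305 and 275 in the wild types, with a change of -0.06 ± 0.13. mt-Tl1, which lies between mt-Rnr2 and mt-Nd1 with no base between them, had 201, 230 and 182 counts in the knockouts and 204, 286 and 289 in the wild types, with a change of -0.21 ± 0.14. mt-Ta (alanine), the fourth most counted, had 45, 52 and 46 counts in the knockouts and 30, 37 and 57 in the wild types, with a change of 0.34 ± 0.24. Over these and mt-Tn, mt-Te and mt-Tt, the adjusted p ranged from 0.473 to 0.909 (edgeR), with 3 changes above 0 and 4 below. All tRNA genes together made 0.198%, 0.248% and 0.222% of mitochondrial counts in the knockouts and 0.216%, 0.212% and 0.203% in the wild types (exact two-sided permutation p = 0.5, adjusted 0.583).

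The other 15 tRNA genes did not pass the filter on low counts, and none exceeded 6 counts in a library. Together they held 7 to 12 counts per library. mt-Ti alone among them did not overlap between genotypes after scaling, with 1 count in each knockout and in WT 2 and 3 and 0 in WT 1, which is within the 3 counts that a count of 0 allows. The genes mt-Tf, mt-Tw, mt-Td, mt-Tk, mt-Tg, mt-Tr and mt-Th had 0 counts in all 6 libraries, which allows up to 0.128 to 0.159 CPM per library. Of these, mt-Td, mt-Tk, mt-Tg and mt-Tr lie between genes of the copied stretch, and mt-Tf, mt-Tw and mt-Th lie outside it. mt-Ts1, at chrM:6870-6938 on the minus strand, also lies within the stretch and had 3, 4 and 1 counts in the knockouts, against 2, 0 and 4 in the wild types. Whether the bases of these tRNA genes are part of the chromosome 1 copy was not analysed here. The minus strand holds 8 tRNA genes, whose 694 to 799 counts per library exceeded the 219 to 344 counts of the 14 on the plus strand. Most of these minus-strand counts were of mt-Tc and mt-Tp. The strand setting of the counting is not given, so no difference between the strands is read from these counts.

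**Figure D5:**
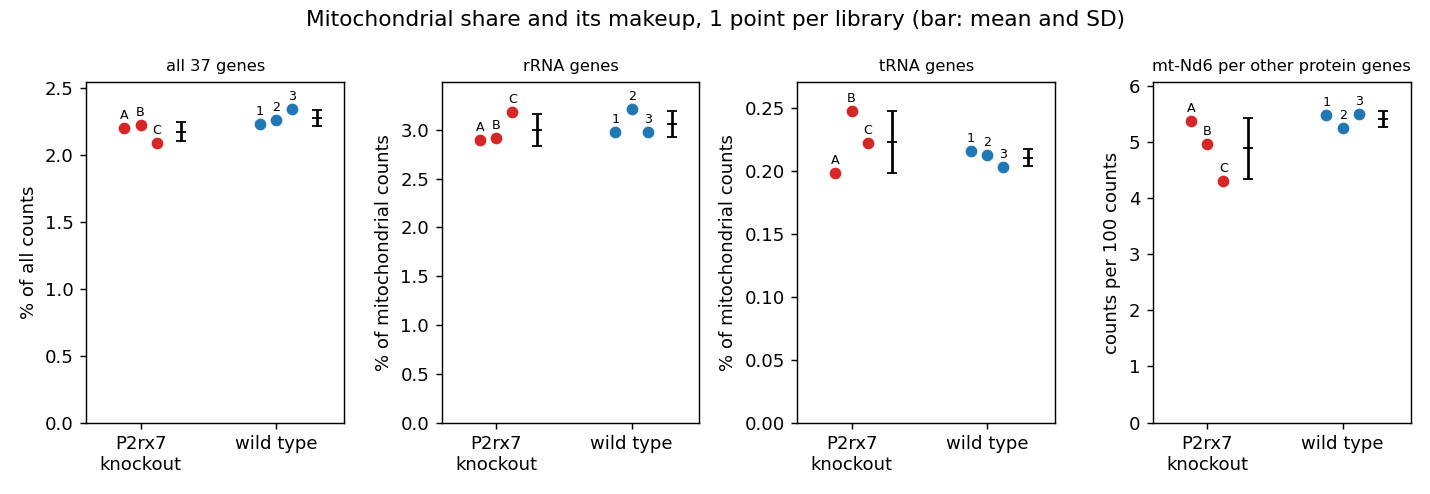
Share of all counts on the 37 genes, rRNA and tRNA shares of mitochondrial counts, and mt-Nd6 counts per 100 counts of the other 12 protein genes, with 1 labelled point per library, knockouts left of wild types, and bars for mean and SD (n = 3 each). The share of all counts is 2.09% to 2.23% in the knockouts and 2.23% to 2.34% in the wild types, and the other panels overlap.

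The nuclear genes of the same complexes were set beside the mitochondrial ones from lists of subunits, and 0 of their members were called in any list by edgeR or by DESeq2, where edgeR called 0.103% and DESeq2 3.2% of all tested genes. Of all tested genes, 51.2% had fold changes above 0, and 8.35% were higher and 8.22% lower at an unadjusted p under 0.05 in edgeR. Of 36 tested nuclear subunits of complex I, 31 had fold changes above 0, with a median of 0.06; 2 were higher and 0 lower at an unadjusted p under 0.05. Ndufa10, an accessory subunit, was at 73.7 ± 2.89 CPM in the knockouts and 74.1 ± 0.945 CPM in the wild types (SD, n = 3 each). Of 9 tested genes of complex III, 8 were above 0, with a median of 0.03, and 1 was higher at an unadjusted p under 0.05. Its core subunit Uqcrc2 was higher in every knockout, at 76.1 ± 1.20 CPM in the knockouts and 70.6 ± 0.985 CPM in the wild types (adjusted p = 0.263, edgeR), and Uqcrc1 was at 141 ± 4.85 CPM in the knockouts and 139 ± 3.63 CPM in the wild types.

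Of 11 tested nuclear genes of complex IV, 6 were above 0, with a median of 0.01, and 0 had an unadjusted p under 0.05. Cox4i1, a structural subunit, was at 182 ± 9.04 CPM in the knockouts and 175 ± 1.79 CPM in the wild types, and Cox6a1 was at 173 ± 9.25 CPM in the knockouts and 175 ± 2.47 CPM in the wild types (SD, n = 3 each). Of 14 tested genes of complex V, from a list of 15, 9 were above 0, with a median of 0.04, and 1 was higher at an unadjusted p under 0.05. The catalytic subunits Atp5b and Atp5a1 were at 657 ± 19.0 and 479 ± 21.2 CPM in the knockouts and 667 ± 22.9 and 474 ± 7.65 CPM in the wild types. Of 25 genes that make or process mitochondrial RNA, 13 were above 0, with a median of 0.02, and 1 was higher and 1 lower at an unadjusted p under 0.05. Rexo2, an exonuclease that degrades short RNAs in mitochondria, was at 117 ± 9.76 CPM in the knockouts and 137 ± 11.3 CPM in the wild types (log2 fold change -0.24, adjusted p = 0.219, edgeR), and Grsf1, an RNA-binding protein of mitochondrial RNA granules, was at 75.8 ± 1.54 CPM in the knockouts and 72.0 ± 1.59 CPM in the wild types (adjusted p = 0.436).

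The balance of mitochondrial to nuclear transcripts of a complex is given as a description with no test, since the ratio was chosen with the values of both parts in view. For complex III, mt-Cytb had 726, 693 and 644 counts per 100 nuclear counts in the knockouts A, B and C, against 771, 734 and 758 in WT 1, 2 and 3, without overlap. For complex I the ratio took mt-Nd1, mt-Nd2, mt-Nd4, mt-Nd5 and mt-Nd6 and left out mt-Nd3 and mt-Nd4l. This ratio was 735, 694 and 620 in the knockouts, against 710, 773 and 773 in the wild types, and knockout A lay among the wild types. For complex IV, mt-Co1 had 700, 647 and 639 counts per 100 nuclear counts in the knockouts, against 696, 711 and 709 in the wild types, again with knockout A among the wild types. In all 3 ratios the lowest library was knockout C, which also had the lowest mt-Nd6, itself part of the complex I ratio.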

How the data were processed

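Per the labels' protocols, RNA of flushed marrow was purified with a Qiagen kit and made into libraries with a SMARTer kit. The submitters' processing notes name GRCm38 and mm10, which denote 1 mouse assembly. Aligner, counter, annotation, strand setting and the treatment of reads with several matches were not given in the sources used here. Raw counts and FPKM values per gene were deposited in 1 table, whose feature columns have the layout of featureCounts per the file headers. The deposited FPKM equal the count over gene length and a scaled library total, to a relative tolerance of 1e-06 in 100% of values.

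Genotypes were taken from the labels. Counts were tested with edgeR 4.0.16 in R 4.3.3 (filterByExpr, TMM, glmQLFit and glmQLFTest, two-sided, Benjamini-Hochberg over all tested genes, threshold 0.05). Standard errors are those implied by the test, and CPM are TMM-scaled. DESeq2 1.42.0 was an alternative. Shares were tested with exact permutation tests. Positions and sequences came from GENCODE M21, where all 44 mitochondrial genes and copies had the position given in the table, and nuclear matches were sought in its transcripts in exact windows of 75 and 150 bases. Scripts were tested on simulated data. The members and lists were chosen with earlier results of these data known. The rule for named genes took all protein and rRNA genes, the 4 tRNA genes of highest count, any that passed or did not overlap, and from each nuclear list the 2 of highest CPM. A gene covered by this rule is not reported here. The labels do not say how the mice of a group are related, so p-values measure only the spread between these libraries. For a gene at 0 the limit given is 3 counts, for counting error only.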

Additional observations from a re-analysis of the deposited data

How the results depend on the processing

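Of the 22 tested genes, 0 were called in edgeR with all libraries, and 1, mt-Co3, was called without the filter on low counts (log2 fold change -0.50, adjusted p = 0.00993) and in DESeq2 (-0.49, adjusted p = 0.0372). Leaving out each library in turn gave 0 to 1 calls, the 1 being mt-Co3 without WT 3. Over all genes tested, the calls numbered 16 in the edgeR fit of 6 libraries, 970 without the filter, 496 in DESeq2, 172 without WT 3, 45 without WT 2 and 0 without knockout B, without knockout C, with the library set (Gh or Alb) as a term or with only the libraries that hold Gh. With the set as a term, mt-Nd2 was at 0.0174 and mt-Tt at -0.198. With only the Gh libraries they were at 0.0144 and -0.201. These signs are opposite to those in the fit of all libraries. In each of these fits the genotype change rests on knockout A alone against the wild types, since knockouts B and C held no Gh. The tRNA percentage of mitochondrial counts differed by 0.0123 points over all libraries, by -0.0118 with only the Gh libraries and by -0.00253 with only plus-strand tRNA genes. The cause of these changes was not tested.

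Leaving out each library in turn, log2 fold changes crossed 0 for mt-Nd2 (-0.0771 to 0.0281), mt-Nd4 (-0.0813 to 0.0142), mt-Tp (-0.221 to 0.0101), mt-Tn (-0.238 to 0.0689), mt-Tt (-0.245 to 0.285) and mt-Te (-0.732 to 0.00587). The difference in rRNA percentage ranged from -0.154 to 0.0172 points, that in tRNA percentage from -0.000195 to 0.0244 and that in the share of all counts from -0.131 to -0.0642. The median of the protein genes stayed between -0.14 and -0.06 in every alternative run. Adding the counts of the copies, an alternative chosen after the data were seen, left 0 calls. No paired analysis was possible because knockouts carry letters and wild types carry numbers. The protein genes with at most 70 counts in a library, mt-Nd3, mt-Nd4l and mt-Atp8, have standard errors of 0.22 to 0.27, so small changes were not detectable at this depth.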
